A study of Mus musculus with 6 samples.

Results

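Transcripts of glycolysis and of the response to low oxygen were measured in the small intestine of C57BL/6 mice at postnatal day 14, with 3 libraries labelled Erk1/2 knockout (genotype Erk1/2 -/-) and 3 labelled wild type. The genes are 33 symbols, of the 24452 in each library, chosen by name with earlier results of these data known. They are the enzymes of glycolysis step by step, glucose and lactate carriers, and enzymes that set the fate of pyruvate. The others are genes of the oxygen-sensing pathway and targets of the transcription factor HIF (hypoxia-inducible factor). All 33 had a row, and 32 of them passed the filter of at least 10 normalised counts in at least 3 libraries, with Eno1 left out. The labels name no promoter, Cre line or cell type for the gene loss. They also leave unsaid whether replicates are different mice, and the p-values below cover only the variation among the 6 libraries, which may be technical. Values are normalised counts, which are read counts divided by a factor for each library and rounded.

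Glycolysis splits glucose into pyruvate and yields ATP without oxygen. Lactate dehydrogenase then turns pyruvate into lactate, which leaves the cell through monocarboxylate carriers. HIF is made of an oxygen-labile alpha subunit, such as the one encoded by Hif1a, and a stable partner; in oxygen, prolyl hydroxylases of the EGLN family mark the alpha subunit for destruction, and in low oxygen it survives and switches on glycolytic enzymes, glucose uptake, vessel growth factors and pH regulators. The villus epithelium of the gut lies along a steep oxygen gradient and is known for low oxygen at its surface.

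HIF binds DNA at a short core, ACGTG or GCGTG, so the promoters of some called genes are shown. Each is given as the 250 bases before the RefSeq start site (GRCm38.p6). They belong to the 4 genes with the largest rises among those called higher and to the only gene called lower. These genes are described below with their counts. The windows are chr11:120948817-120949066 (plus strand) for Slc16a3, chr4:43506776-43507025 (plus) for Car9, chr4:119108495-119108744 (plus) for Slc2a1, chrX:106186850-106187099 (plus) for Pgk1 and chr6:142507958-142508207 (minus) for Ldhb. Capitals mark ACGTG and GCGTG on either strand (read here as CACGT and CACGC where the core lies on the other strand).
Slc16a3: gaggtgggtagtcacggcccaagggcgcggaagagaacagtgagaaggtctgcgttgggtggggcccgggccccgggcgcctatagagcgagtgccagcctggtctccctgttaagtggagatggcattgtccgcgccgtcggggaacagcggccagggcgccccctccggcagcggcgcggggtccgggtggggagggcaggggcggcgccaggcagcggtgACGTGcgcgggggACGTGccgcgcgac
Car9: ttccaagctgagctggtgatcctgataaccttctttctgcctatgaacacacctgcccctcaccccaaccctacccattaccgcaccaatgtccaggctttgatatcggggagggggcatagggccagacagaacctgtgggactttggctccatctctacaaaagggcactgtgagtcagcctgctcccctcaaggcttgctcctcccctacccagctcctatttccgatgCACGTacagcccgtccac
Slc2a1: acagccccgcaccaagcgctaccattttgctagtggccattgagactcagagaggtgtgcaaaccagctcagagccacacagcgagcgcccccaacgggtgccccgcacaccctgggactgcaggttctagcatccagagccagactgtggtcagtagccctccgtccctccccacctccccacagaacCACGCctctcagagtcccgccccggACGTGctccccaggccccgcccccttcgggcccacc
Pgk1: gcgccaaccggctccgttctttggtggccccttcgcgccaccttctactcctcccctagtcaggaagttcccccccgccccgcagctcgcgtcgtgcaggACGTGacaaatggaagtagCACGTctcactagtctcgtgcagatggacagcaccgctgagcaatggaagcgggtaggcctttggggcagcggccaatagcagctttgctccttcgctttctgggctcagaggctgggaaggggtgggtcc
Ldhb: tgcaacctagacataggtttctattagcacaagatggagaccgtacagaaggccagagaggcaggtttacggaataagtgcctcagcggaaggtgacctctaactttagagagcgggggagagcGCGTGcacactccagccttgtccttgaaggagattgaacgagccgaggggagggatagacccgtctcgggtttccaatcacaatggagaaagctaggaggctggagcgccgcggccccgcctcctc
The Slc16a3 and Pgk1 stretches held 2 copies of ACGTG each, those of Car9 and Slc2a1 held 1 each, and the Ldhb stretch held 0 copies of ACGTG and 1 of GCGTG. Over the full RefSeq windows of 300 bases (250 before to 50 after the start), 23 of the 32 genes with a promoter entry had ACGTG on either strand in at least 1 window, 71.9%, compared with 28.1% of the 11134 tested genes with an entry. The palindrome CACGTG, which contains ACGTG on both strands, was in 18.8% of the 32 genes and 11.2% of the tested genes. GCGTG was in 68.8% and 53.6%. The windows had a median GC content of 63.9% in the 32 genes and 60.3% in the tested genes. Among the genes called higher, 12 of 16 had ACGTG, and among those not called with an entry, 11 of 14. The latter include Vegfa and P4ha2, for which the labelled knockout libraries lay below the wild type libraries without a call. Some genes have several windows: by window, ACGTG was in 57.8% of 45 for the 32 genes and 24.1% of 14179 for the tested genes. The genes were chosen partly as HIF targets, so these comparisons are not independent of that choice. A match is a description of the sequence only.

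The deletion was checked first in the counts of an ERK gene. Mapk3, which encodes ERK1, had 3363, 2280 and 2734 normalised counts in labelled knockout 1 to 3, against 3142, 2788 and 2004 in wild type 1 to 3. The groups overlapped (limma adjusted p = 0.819), and these whole-gene totals hold no exon values, so directions below are those of the labels. Library totals ran from 14825845 to 17153570 in the labelled knockout libraries and from 13641468 to 14094100 in the wild type libraries. Labelled knockout 1 and wild type 3 stood apart in markers of gut segments, which the labels do not give. A segment score (mean log2 value of 5 proximal genes minus that of 3 ileal genes, centred) was -3.99 in labelled knockout 1 and -4.58 in wild type 3, against 2.99 and 2.94 in labelled knockout 2 and 3 and 1.67 and 0.96 in wild type 1 and 2. These libraries did not share all ileal markers: Fabp6 had 1947 normalised counts in labelled knockout 1 and 4 in wild type 3, and Fgf15 had 390 in labelled knockout 1 and 1975 in wild type 3. Selected genes are given below within this low-score pair and within the other 4 libraries.

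Most steps of glycolysis had more transcript in the libraries labelled knockout. Of the 32 genes tested, 16 were called higher and 1 lower (limma on log2(normalised count + 1), Benjamini-Hochberg adjusted p under 0.05 over 14663 genes), where 8.80% of all genes tested were called, 4.86% higher and 3.94% lower. Because earlier results of these data were known when the genes were chosen, this contrast with all genes is not independent of the data. Of all calls 55.2% were higher with the deposited scaling, 44.3% with upper-quartile scaling and 29.7% with scaling to library totals, where 13 of the 16 stayed called. In counts of genes below, rose and fell mean called higher and called lower. The 16 log2 fold changes ran from 0.91 to 3.40. The median over the 32 genes was 0.94, compared with -0.01 over all genes tested. The labelled knockout libraries all lay above the wild type libraries for 22 of the 32 genes and below them for 3, where 19.8% and 17.9% of all genes did so. The 33 genes together took 1.03%, 1.18% and 1.35% of the counts in labelled knockout 1 to 3, against 0.703%, 0.592% and 0.533% in wild type 1 to 3. In whole tissue, more cells of a type and more RNA per cell cannot be told apart.

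**Figure D1:**
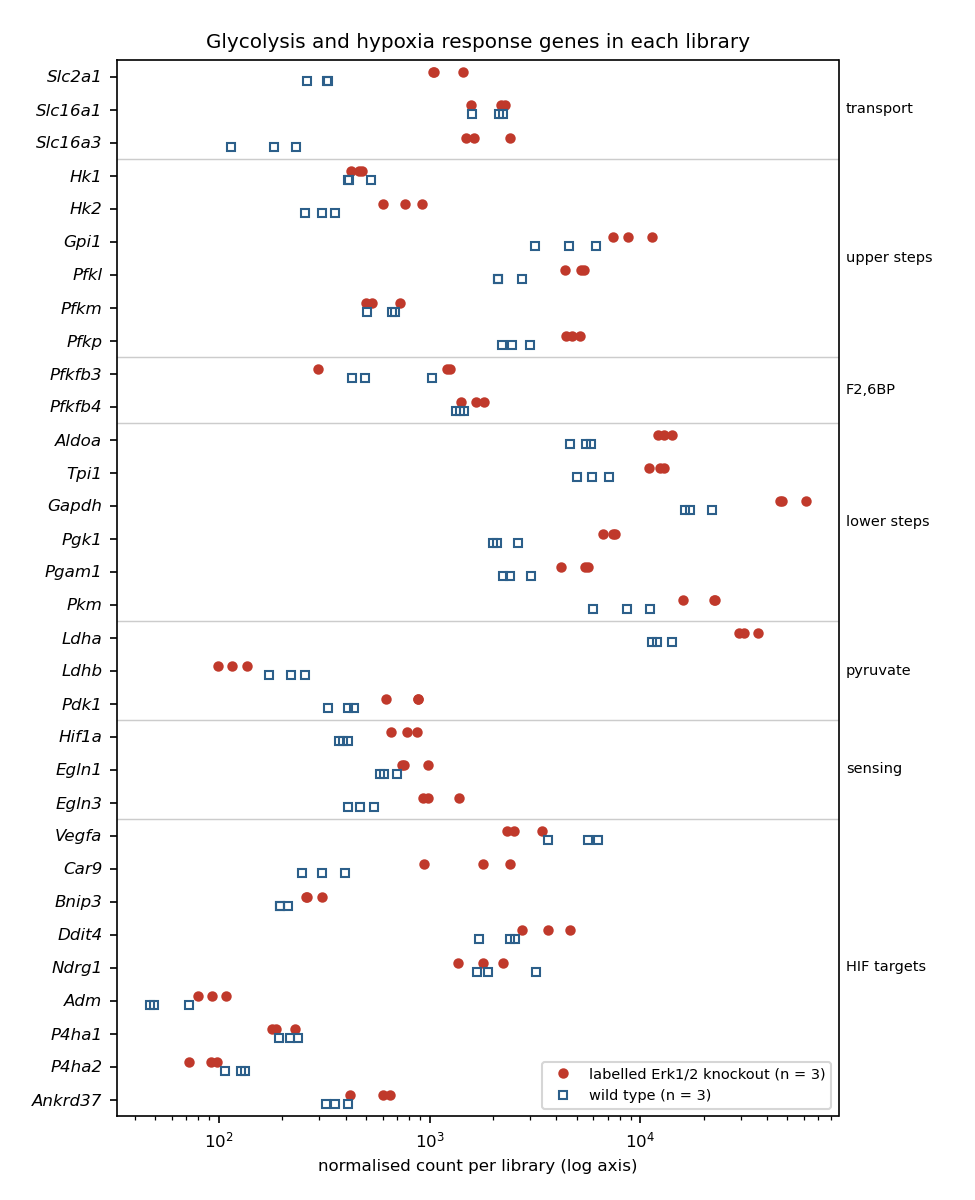
Normalised count of each of the 32 tested genes in each library, on a log axis, with filled red circles for the 3 libraries labelled Erk1/2 knockout and open squares for the 3 wild type libraries; genes are grouped by role. The circles lie to the right of the squares in all 6 lower-step genes and in Slc2a1, Slc16a3 and Car9, while they overlap in Slc16a1, Hk1, Pfkm, Pfkfb3, Pfkfb4, Ndrg1 and P4ha1.

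Of the 3 carriers, 2 rose and 1 did not differ beyond its spread. Slc2a1, encoding the glucose carrier GLUT1 that stands in most cell membranes, had 1044, 1046 and 1436 normalised counts in labelled knockout 1 to 3, against 325, 329 and 262 in wild type 1 to 3. The lowest labelled knockout library was more than 3 times the highest wild type library. Its log2 fold change was 1.93 ± 0.18 (SE; limma adjusted p = 0.00731). Slc16a3, encoding the lactate exporter MCT4, had 1626, 1484 and 2413 in the labelled knockout libraries, against 233, 114 and 182 in the wild type libraries. No other gene of the 32 had so large a change: the groups lay far apart and the fold was 10.6 (log2 fold change 3.40 ± 0.30, limma adjusted p = 0.00641). Slc16a1, encoding MCT1, which carries lactate and butyrate in either direction, had 1576, 2188 and 2279 in the labelled knockout libraries, against 2126, 2243 and 1594 in the wild type libraries. Here the groups overlapped, and the 95% interval of the log2 fold change ran from -0.47 to 0.51.

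The lactate carriers were also compared with each other. Per kilobase of transcript, Slc16a3 averaged 425 ± 115 normalised counts in the labelled knockout libraries and 40.7 ± 13.8 in the wild type libraries (SD, n = 3 each), while Slc16a1 averaged 455 ± 86.4 in the labelled knockout libraries and 449 ± 78.2 in the wild type libraries. Their levels per kilobase overlapped in the labelled knockout libraries, while Slc16a1 was far above Slc16a3 in every wild type library. The log2 ratio of Slc16a3 to Slc16a1 within a library was higher by 3.39 in the labelled knockout libraries (exact permutation p = 0.1, two-sided, the smallest that 3 against 3 can give).

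In the upper steps, which trap and commit glucose, 3 of 6 genes rose. Hk2, the inducible hexokinase that phosphorylates glucose, had 602, 917 and 766 normalised counts in labelled knockout 1 to 3, against 355, 309 and 257 in wild type 1 to 3. The groups did not overlap, and the log2 fold change was 1.30 ± 0.20 (limma adjusted p = 0.02). Hk1, the constitutive hexokinase, had 424, 476 and 461 in the labelled knockout libraries, against 528, 416 and 410 in the wild type libraries, and its interval ran from -0.35 to 0.38. Gpi1, the isomerase that makes fructose 6-phosphate, had 7412, 8793 and 11392 in the labelled knockout libraries, against 6167, 4587 and 3155 in the wild type libraries; these did not overlap, but at a log2 fold change of 1.02 ± 0.28 it was not called (limma adjusted p = 0.0669).

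Phosphofructokinase, the committing step, has 3 subunit genes, and the liver and platelet forms rose. Pfkl had 5400, 4391 and 5238 normalised counts in the labelled knockout libraries, against 2760, 2113 and 2108 in the wild type libraries (log2 fold change 1.11 ± 0.17, limma adjusted p = 0.0194). Pfkp had 4432, 5152 and 4748 in the labelled knockout libraries, against 2465, 2209 and 2987 in the wild type libraries (0.91 ± 0.16, adjusted p = 0.0246). Both pairs of groups were apart. Pfkm, the muscle form, had 723, 497 and 532 in the labelled knockout libraries, against 686, 662 and 505 in the wild type libraries, which overlapped. Per kilobase of transcript, Pfkl averaged 1343 ± 145 normalised counts in the labelled knockout libraries and Pfkp 1153 ± 87.1, which overlapped between these genes, while Pfkm was lower at 203 ± 42.2 (SD, n = 3). In the wild type libraries Pfkl and Pfkp had like levels per kilobase, 624 ± 101 and 616 ± 95.7, and Pfkm had 215 ± 34.2.

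The bifunctional enzymes that set fructose 2,6-bisphosphate, the activator of phosphofructokinase, were not called. Pfkfb3 varied within both groups, with 1208, 1244 and 296 normalised counts in labelled knockout 1 to 3, against 493, 430 and 1032 in wild type 1 to 3. Labelled knockout 3 was the lowest of all 6 libraries and wild type 3 the highest of its group. Pfkfb4 had 1414, 1667 and 1813 in the labelled knockout libraries, against 1462, 1401 and 1342 in the wild type libraries, with an interval for the log2 fold change from -0.12 to 0.55.

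All 6 tested genes of the lower steps, from aldolase to pyruvate kinase, rose, with log2 fold changes between 1.00 and 1.70. Aldoa, the aldolase that splits the hexose, had 13000, 12164 and 14081 normalised counts in labelled knockout 1 to 3, against 5865, 4666 and 5534 in wild type 1 to 3. Tpi1, which interconverts the triose phosphates, had 12914, 11030 and 12373 in the labelled knockout libraries, against 7077, 5875 and 5000 in the wild type libraries. The log2 fold changes were 1.29 ± 0.16 for Aldoa (limma adjusted p = 0.0121) and 1.03 ± 0.18 for Tpi1 (adjusted p = 0.0238). Gapdh, which makes the first NADH, had 46867, 45995 and 61008 in the labelled knockout libraries, against 21916, 17162 and 16300 in the wild type libraries. With the highest counts of the 33 genes, it made up between 26.1% and 30.4% of their summed counts in the labelled knockout libraries, against between 21.3% and 22.7% in the wild type libraries. Its log2 fold change was 1.47 ± 0.21 (limma adjusted p = 0.0173). Pgk1, which makes the first ATP, had 7446, 6676 and 7556 in the labelled knockout libraries, against 2629, 2000 and 2080 in the wild type libraries, a 3.25-fold rise with little spread within either group (log2 fold change 1.70 ± 0.16, adjusted p = 0.00731).

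Pgam1, the mutase of the next step, had 4206, 5632 and 5480 normalised counts in labelled knockout 1 to 3, against 3025, 2238 and 2415 in wild type 1 to 3. Pkm, the pyruvate kinase of most tissues besides liver, had 15966, 22404 and 22651 in the labelled knockout libraries, against 11129, 8629 and 5951 in the wild type libraries. The groups were apart in both, with log2 fold changes of 1.00 ± 0.18 for Pgam1 (limma adjusted p = 0.0278) and 1.28 ± 0.27 for Pkm (adjusted p = 0.0385). Eno1, the enolase between them, was listed at 0, 2 and 0 in the labelled knockout libraries, against 0, 0 and 0 in the wild type libraries. This gene is used by nearly every cell, so its row is not a measure of enolase here. A gene copy on chromosome 18, Eno1b, matches the Eno1 transcript at 99.5% over 1736 of 2027 bases, and it had 24, 12 and 37 counts in the labelled knockout libraries, against 19, 12 and 4 in the wild type libraries; how the counting treated reads that match both was not tested.

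Near-identical copies also bear on Gapdh, for which 72 other GENCODE genes, 69 of them annotated pseudogenes, matched its transcript at 95% or more over at least 50% of its length. There were 2 such copies each for Pgk1 and Ldha, 1 each for Pkm and Ldhb, and 0 for the other genes besides Eno1. Reads could have been split or dropped between copies, so the levels of these genes are uncertain.

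**Figure D2:**
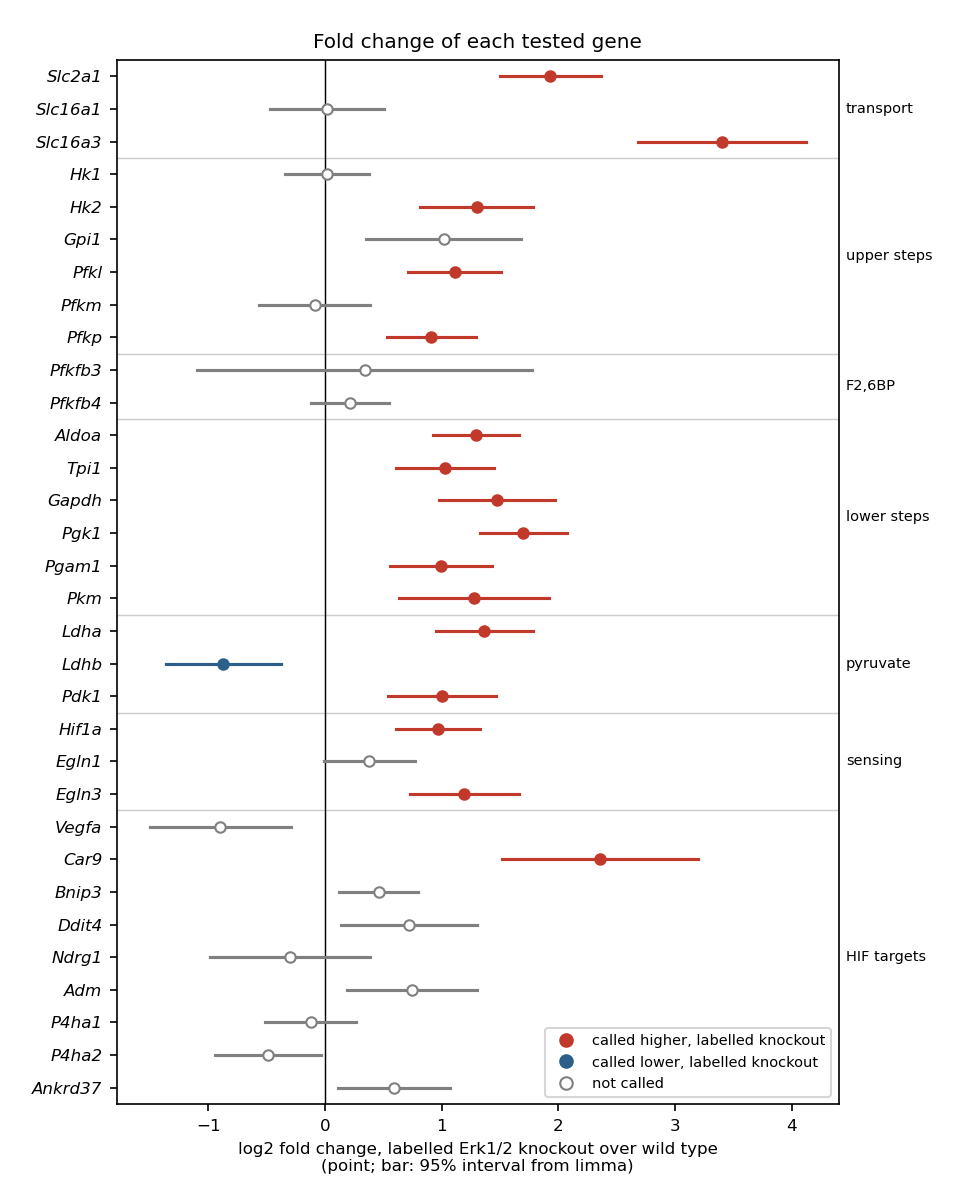
Log2 fold change of each tested gene, labelled Erk1/2 knockout over wild type, as a point with its 95% interval from limma; red points were called higher, the blue point lower, and open grey points were not called. The lower-step genes from Aldoa to Pkm sit between 1.00 and 1.70, Slc16a3 sits at 3.40, and Ldhb at -0.87 is the blue point.

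The 3 chosen genes for the fate of pyruvate, Ldha, Ldhb and Pdk1, were all called, in opposite directions for the lactate dehydrogenase subunits. Of 14 neighbouring genes of pyruvate entry into mitochondria, 12 were not called. Ldha (chromosome 7, 46841475 to 46855627, GRCm38), encoding the subunit that favours lactate, had 36360, 29421 and 31011 normalised counts in labelled knockout 1 to 3, against 14192, 11358 and 12044 in wild type 1 to 3. Ldhb (chromosome 6, 142490249 to 142507957), encoding the subunit of oxidative tissues that favours pyruvate, had 99, 136 and 116 in the labelled knockout libraries, against 255, 173 and 219 in the wild type libraries. Every labelled knockout library lay above the wild type libraries for Ldha and below them for Ldhb. The log2 fold change of Ldha was 1.36 ± 0.18 (limma adjusted p = 0.0134), and that of Ldhb was -0.87 ± 0.21 (adjusted p = 0.0486), close to the threshold. The Ldhb call was lost with no filter on low values and with no intensity trend. The log2 ratio of Ldha to Ldhb within a library was 8.10 ± 0.38 in the labelled knockout libraries and 5.87 ± 0.14 in the wild type libraries (SD, n = 3 each), on counts not divided by length. The difference of 2.24 gave an exact permutation p of 0.1. Pdk1, a kinase that shuts off pyruvate dehydrogenase, had 619, 880 and 880 normalised counts in the labelled knockout libraries, against 438, 410 and 330 in the wild type libraries. Its groups were apart, and it rose by 1.00 ± 0.20 (limma adjusted p = 0.0317). The other kinase genes of this family were not called. Pdk2 averaged 1202 in the labelled knockout libraries, all below the wild type libraries, which averaged 1668 (log2 fold change -0.47 ± 0.16). Pdk4 averaged 1131 against 2860 in the wild type libraries (-1.13 ± 0.57), and Pdk3 263 against 245 (0.03 ± 0.42), both with overlap.

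Isoform ratios do not depend on the scaling of a library, and 6 were compared. The log2 ratio of Hk2 to Hk1 was 0.73 ± 0.22 in the labelled knockout libraries and -0.56 ± 0.12 in the wild type libraries (SD, n = 3 each), on counts not divided by length. Per kilobase of transcript, Hk2 averaged 138 ± 28.6 normalised counts and Hk1 118 ± 6.95 in the labelled knockout libraries, against 55.7 ± 8.89 for Hk2 and 117 ± 17.3 for Hk1 in the wild type libraries. Ratios of Pfkl to Pfkm and of Pfkp to Pfkm were higher by 1.20 and 1.00. These 3 ratios, with those of Ldha to Ldhb and Slc16a3 to Slc16a1, had the groups apart, each with an exact permutation p of 0.1 and an adjusted p of 0.12 over the 6. The ratio of Pfkfb3 to Pfkfb4 overlapped (difference 0.13, exact p = 0.9).

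**Figure D3:**
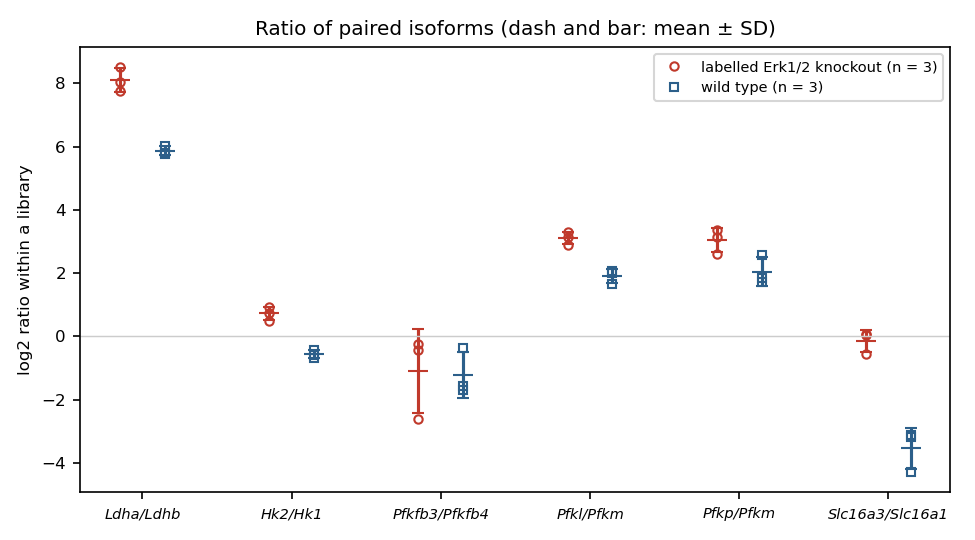
Log2 ratio of 2 isoform genes within each library for 6 pairs, with circles for libraries labelled Erk1/2 knockout and squares for wild type libraries; the dash and bar give the mean and SD of 3 libraries. The groups are apart in 5 of the 6 pairs and overlap for Pfkfb3 to Pfkfb4.

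Of the genes of the oxygen-sensing pathway (Hif1a, Egln1 and Egln3), Hif1a and Egln3 rose. Hif1a (chromosome 12, 73901375 to 73947530) had 654, 871 and 783 normalised counts in labelled knockout 1 to 3, against 388, 373 and 410 in wild type 1 to 3. Egln3, a prolyl hydroxylase that is itself a HIF target, had 981, 933 and 1383 in the labelled knockout libraries, against 544, 411 and 470 in the wild type libraries. The groups were apart in both, which were 1.96-fold and 2.29-fold higher, with log2 fold changes of 0.97 ± 0.15 (limma adjusted p = 0.02) and 1.20 ± 0.20 (adjusted p = 0.0223). Egln1, the main prolyl hydroxylase of HIF-1 alpha, had 756, 739 and 982 in the labelled knockout libraries, against 606, 583 and 703 in the wild type libraries. Its groups did not overlap but it was not called, at 0.38 ± 0.16 (limma adjusted p = 0.171). HIF-1 alpha is controlled mainly as a protein, which these libraries did not measure.

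Of the 9 HIF targets outside glycolysis, 1 was called higher, none lower and 8 were not called, where 8.80% of all genes tested were called. Their log2 fold changes had a median of 0.46 and a range from -0.90 to 2.36. Car9, a cell-surface carbonic anhydrase that handles the acid made by glycolysis, had 944, 1803 and 2419 normalised counts in labelled knockout 1 to 3, against 396, 307 and 249 in wild type 1 to 3. It had the largest spread among the labelled knockout libraries of the genes that rose on the log2 scale, yet all 3 lay above the wild type libraries. The log2 fold change was 2.36 ± 0.36 (limma adjusted p = 0.0193). Vegfa, the vessel growth factor, had 2322, 3434 and 2515 in the labelled knockout libraries, against 5639, 6332 and 3635 in the wild type libraries. The labelled knockout libraries lay below the wild type libraries, and at -0.90 ± 0.26 it was not called (limma adjusted p = 0.0711). It was called in 0 of 6 fits that left out 1 library (limma adjusted p between 0.0569 and 0.252). Without both low-score libraries its value was -1.02 with an adjusted p of 0.00783, in a fit that called 26.4% of all genes, and the low-score pair alone gave -0.65. With the segment score as a covariate its adjusted p was 0.00847.

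Endothelial markers are given beside Vegfa. The 9 markers summed to between 5733 and 6846 normalised counts in the labelled knockout libraries, against between 7623 and 9264 in the wild type libraries, with none at 0. Of the 9, 3 fell, among them Pecam1 with a log2 fold change of -0.74 and Kdr, a receptor of VEGF, with -0.81. Their part in the Vegfa values was not tested.

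The remaining HIF targets had smaller differences. Ddit4, an inhibitor of mTORC1 signalling, had 4663, 3648 and 2736 normalised counts in the labelled knockout libraries, against 2399, 2541 and 1711 in the wild type libraries (log2 fold change 0.72 ± 0.24, limma adjusted p = 0.107). Bnip3, which marks mitochondria for removal, had 260, 261 and 307 in the labelled knockout libraries, against 194, 194 and 212 in the wild type libraries (0.46 ± 0.14, adjusted p = 0.0877). Both had the groups apart without a call, as did Adm, encoding the vasodilator adrenomedullin, with 0.75 ± 0.24, and Ankrd37 with 0.59 ± 0.20. Ndrg1, a stress-induced protein, had 2224, 1368 and 1796 normalised counts in the labelled knockout libraries, against 1674, 1904 and 3216 in the wild type libraries, which overlapped (-0.30 ± 0.29). The collagen prolyl hydroxylase subunit genes P4ha1 and P4ha2, which make collagen fit to fold, had -0.12 ± 0.17 and -0.49 ± 0.19; the labelled knockout libraries lay below the wild type libraries for P4ha2, at between 72 and 98 normalised counts in the labelled knockout libraries, against between 107 and 133 in the wild type libraries. None of these 7 passed the test.

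The fold changes were also read within the low-score pair, labelled knockout 1 minus wild type 3 with no test, and among the other 4 libraries. For the 16 genes called higher both values are positive by construction, since their groups were apart, so only the sizes are described: the median was 1.36 on the log2 scale in the low-score pair and 1.26 among the other 4 libraries. For Slc16a3 the log2 differences were 3.15 in the low-score pair and 3.53 among the other 4 libraries, for Car9 1.92 and 2.58, for Ldha 1.59 and 1.25, and for Hif1a 0.67 and 1.12. Ldhb had -1.14 and -0.74 in that order. Among the uncalled genes, Ddit4 had 1.45 in the low-score pair and 0.36 among the other 4 libraries, Adm 0.15 and 1.05, and Pfkm 0.52 and -0.39.

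Other cell markers moved with these genes. The 9 epithelial markers summed to between 162918 and 170175 normalised counts in the labelled knockout libraries, against between 81947 and 101624 in the wild type libraries, with none at 0. Of these, the keratin genes Krt8, Krt19 and Krt20 rose, with log2 fold changes of 1.28, 1.45 and 1.94. The others, among them Vil1 with 0.44, Epcam with 0.40 and Cdh1 with 0.34, did not pass, and all 9 values were positive with a median of 0.48. The summed counts of the 33 genes were 1.06, 1.08 and 1.18 times the epithelial sum in labelled knockout 1 to 3, against 1.09, 0.985 and 0.739 times in wild type 1 to 3. On this ratio the groups overlapped. The 4 keratin genes made up between 56.9% and 58.2% of the epithelial sum in the labelled knockout libraries, against between 39.0% and 43.2% in the wild type libraries. Over the other 5 epithelial markers, a denominator chosen after seeing the data, the 33 genes had 2.54, 2.51 and 2.80 times the sum in labelled knockout 1 to 3, against 1.92, 1.62 and 1.25 times in wild type 1 to 3, and the groups were apart. The keratin genes left out include every called epithelial marker. Leaving them out raises the ratio more in the labelled knockout libraries, so this gap is not independent of the choice. Of 12 mitosis markers 6 rose, and they summed to between 6855 and 8239 in the labelled knockout libraries, against between 5173 and 5323 in the wild type libraries. Neutrophil markers summed to between 427 and 1054 in the labelled knockout libraries, against between 249 and 314 in the wild type libraries, with S100a8, S100a9 and Ltf higher and Retnlg lower among 6 tested. Red cell markers summed to between 130 and 193 in the labelled knockout libraries, against between 60 and 68 in the wild type libraries, with Alas2 higher of 3 tested and all 6 haemoglobin genes at 0. Smooth muscle, macrophage, pancreas and fat markers overlapped in sum, with Adgre1 the only gene called among them (log2 fold change -0.96), with the fat markers Adipoq and Lep at 0 and the pancreas list at 45825 in wild type 1 and at most 7835 elsewhere. The part of these cells in the glycolysis values was not tested.

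Neighbouring pathways were read from the same fit, in which 8.80% of all genes tested were called. Among 22 other tested glycolysis genes, 2 rose and none fell. These were Hkdc1, a further hexokinase, with 6415, 6971 and 6906 normalised counts in labelled knockout 1 to 3, against 3503, 3545 and 4477 in wild type 1 to 3 (log2 fold change 0.82 ± 0.15, limma adjusted p = 0.0277), and Aldoc, the brain-type aldolase, with 1.64 ± 0.32 (adjusted p = 0.0317). Hkdc1 had 1923 ± 86.4 normalised counts per kilobase in the labelled knockout libraries and 1092 ± 157 in the wild type libraries (SD, n = 3 each), above Hk1 and Hk2 in every library. Pklr, the liver-type pyruvate kinase, had 5831, 6490 and 5557 normalised counts in the labelled knockout libraries, against 5479, 5592 and 5085 in the wild type libraries, which overlapped.

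The pentose phosphate pathway, which draws glucose 6-phosphate off for NADPH and ribose, had 2 of 8 genes higher. They were Tkt, a transketolase, and Pgd, which makes NADPH, with log2 fold changes of 1.37 ± 0.17 and 1.33 ± 0.15 (limma adjusted p of 0.0121 and 0.0109). Of 12 genes of glycogen and galactose entry 3 rose, among them the phosphoglucomutase genes Pgm1 with a log2 fold change of 1.63 ± 0.32 and Pgm2 with 0.78 ± 0.16. Where pyruvate enters mitochondria, 1 of 14 genes rose and 1 fell: Mpc2, a subunit of the pyruvate carrier, had 0.83 ± 0.13, and Pdp2, a phosphatase that reactivates pyruvate dehydrogenase, had -1.24 ± 0.25. In the citric acid cycle only Mdh2, the malate dehydrogenase, was called of 16 genes, with 1.21 ± 0.21, while all 16 log2 fold changes were positive with a median of 0.40.

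Among 32 other genes of the HIF pathway, 5 rose and 1 fell, and the median log2 fold change was 0.02. Fam162a, a mitochondrial HIF target, had 1832, 1213 and 1221 normalised counts in labelled knockout 1 to 3, against 364, 325 and 437 in wild type 1 to 3 (1.90 ± 0.21, limma adjusted p = 0.0108). Mif, a cytokine, rose by 1.41 ± 0.21, Higd1a, a mitochondrial protein, by 1.09 ± 0.19 and Ak4, a mitochondrial adenylate kinase, by 1.38 ± 0.29. The fifth was the carbonic anhydrase gene Car12, with 1.27 ± 0.28, named beyond the 4 with the lowest p-values. Hif3a, a HIF alpha relative whose short forms inhibit HIF-1, had 867, 597 and 410 in the labelled knockout libraries, against 1719, 2413 and 2116 in the wild type libraries, and its log2 fold change was -1.79 ± 0.28 (limma adjusted p = 0.02). Epas1, encoding HIF-2 alpha, overlapped at -0.69 ± 0.35, and Vhl, which marks the hydroxylated alpha subunit for destruction, had -0.19 ± 0.14. Kdm3a, a demethylase gene widely used as a HIF target, had 839, 933 and 1019 in the labelled knockout libraries, against 828, 940 and 966 in the wild type libraries, with 0.03 ± 0.14. Epas1, Vhl and Kdm3a were named for their roles after their values were seen, as were Pklr, Pdk2, Pdk3 and Pdk4 above.

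**Figure D4:**
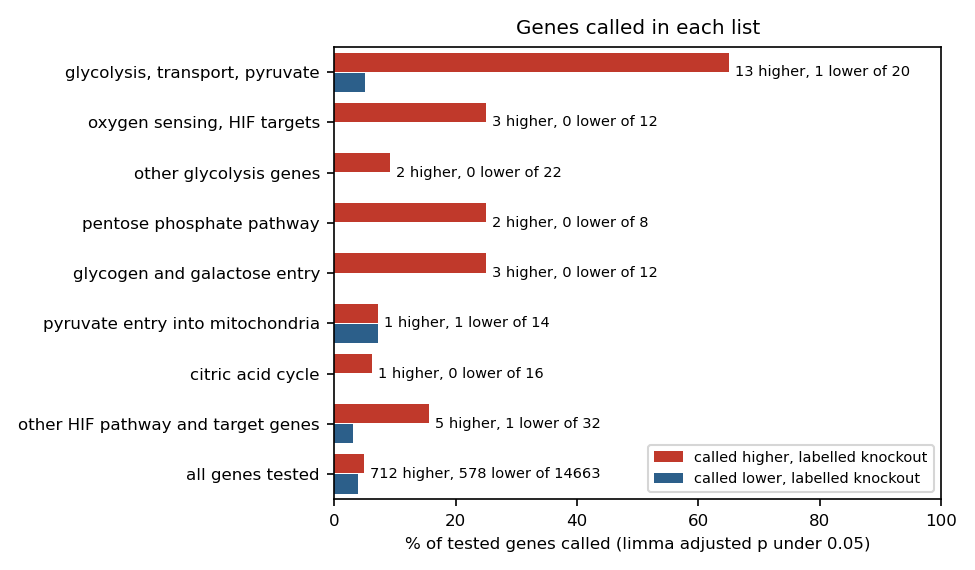
Share of tested genes called higher (red) or lower (blue) in the libraries labelled Erk1/2 knockout, in per cent, for the 20 genes of glycolysis, transport and pyruvate use, the 12 oxygen-response genes, 6 neighbouring lists and all 14663 genes tested. The first list has 13 higher and 1 lower of 20, while all genes have 712 higher and 578 lower.

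The calls depended on which libraries were used. Without labelled knockout 3, 2 of the 17 calls were left, Slc2a1 and Slc16a3; without wild type 1 and without wild type 2, 3 were left, the third being Pgk1; without wild type 3, 7 were left, and without labelled knockout 2, 12. In the same fits the share of all genes called moved as well, to 0.193% without labelled knockout 3 and 20.6% without labelled knockout 1, where the 17 calls remained and Gpi1 and Bnip3 joined them.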

How the data were processed

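RNA was measured in 6 libraries of mouse small intestine, grouped by the sample titles. Per the labels, polyA RNA was extracted with Trizol from frozen tissue and sequenced from TruSeq libraries. DESeq2 (no version), HTSeq 0.6.0, TopHat2 2.1.0 and the build mm10 are named, with no role or order, in the submitters' processing notes; for annotation, strand setting and reads with several matches the sources used here say nothing, so overlapping and antisense genes could share reads. The authors deposited a score per gene symbol, a whole number that is a normalised count and not a raw count: median-ratio factors of the deposited values were between 1.0054 and 1.0088 in all 6 libraries, and 16, 3 and 11 of the whole numbers from 1 to 100 occurred in no gene of labelled knockout 1, labelled knockout 3 and wild type 3. Depth in reads is therefore unknown and counting intervals are not given. Of 24452 symbols, 27 read as dates and entered no test.

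The values were tested with limma 3.58.1 in R 4.3.3 on log2(normalised count + 1), which understates the change of low genes, with an intensity trend, 4 residual and 2.99 prior degrees of freedom, on the 14663 symbols that reached 10 in 3 or more libraries. Tests were two-sided and adjusted by Benjamini-Hochberg at 0.05. Isoform ratios were compared by an exact permutation test. The script was tested on simulated data. The genes and lists were chosen with earlier results of these data known. All 33 genes are named; called genes and at least the most abundant uncalled gene of each role have every library's value, and by rule up to 4 called genes per neighbouring list and direction are named by p-value, apart from some that are not reported here. Per-kilobase levels and positions use the GENCODE transcript with the longest coding part (GRCm38, the assembly that mm10 names); promoters are RefSeq's, with 32 of 33 genes matched. The alternatives changed scaling, filter, pseudocount, trend, block, a segment covariate and the libraries used. Whether same-numbered libraries were paired is not known. Their deviations from the group means correlated at -0.37, 0.30 and -0.16, where all pairs ran from -0.44 to 0.41. With 3 libraries per group, and with segment differences in the same deviations, these values cannot decide it.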

Additional observations from a re-analysis of the deposited data

How the results depend on the processing

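The count of 16 genes called higher stayed within 1.5 times under other scalings, filters and pseudocounts and with no intensity trend (13 to 16). With library-total scaling, which moved the median of all genes from -0.01 to -0.18, Pdk1, Pgam1 and Pkm were not called; the higher share of all calls was then 29.7%, against 55.2% with the deposited scaling and 44.3% with upper-quartile factors. The call of Ldhb was lost, leaving 0 genes lower, with no filter and with no intensity trend; Pkm was also lost with no filter. With the segment score as a covariate 2 genes were lower and 18 higher, with Bnip3, Gpi1 and Vegfa added, while 4240 genes in all, 41 neighbouring genes and 33 marker genes were called, against 1290, 16 and 18 in the reported fit. Without both wild type 3 and labelled knockout 1, 2 genes were lower and 19 higher, and the other counts were 3756, 41 and 36. With the replicate number as a block, 2 of the genes were called higher and 0 lower, with 64 genes in all, 1 neighbouring gene and 2 marker genes. Whether the numbers pair the libraries is not known. With the keratin genes left out of the epithelial sum, chosen after seeing the data, the log2 ratio of the 33 genes to that sum was higher in the labelled knockout libraries by 0.73, against 0.26 with all 9 markers. The keratin genes include every called epithelial marker, so the larger value is not independent of that choice. Leaving out 1 library gave 2 to 18 genes higher, 0 to 1 lower, 28 to 2992 in all, 0 to 31 neighbouring and 0 to 26 marker genes, with smaller groups in each fit; the cause of the range was not tested further. Signs turned for 5 uncalled genes and 1 ratio. Slc16a1 had -0.00020, -0.041, -0.16 and -0.079 with trimmed-mean, upper-quartile and library-total scaling and the covariate, and Hk1 had -0.00060, -0.041, -0.16 and -0.020 in that order and -0.00070 without both low-score libraries. Mapk3 had -0.089 with library totals and -0.25 without both low-score libraries. Leaving out 1 library, Slc16a1 ran from -0.14 to 0.18, Hk1 from -0.048 to 0.13, Pfkm from -0.25 to 0.019, Pfkfb3 from -0.011 to 1.02, Mapk3 from -0.10 to 0.22 and the log2 ratio of Pfkfb3 to Pfkfb4 from -0.30 to 0.89.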
